A study of Mus musculus with 9 samples.

Results

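The genes described here are 10 transcripts grouped as markers of T cells lodged between the epithelial cells of the gut: Cd3d, Cd3e, Cd3g, Cd8a, Nkg7, Gzma, Gzmb, Ccl5, Itgae and Ptprc. Not all are limited to these cells, Ptprc least of all. Bulk libraries do not show which cells the transcripts came from. The 10 genes were taken by symbol, and all 10 of the 10 were present among the 23951 genes of each deposited table. Expression had been measured by RNA sequencing in 9 libraries of mouse jejunal crypts, 3 in each of 3 groups, each numbered 0 to 2. The double mutants were Smad4f/f; Ex3f/+;Villin-CreER(T2) mice given tamoxifen, in which Smad4 is deleted and 1 allele of Ctnnb1 loses exon 3, which leaves a stabilised beta-catenin. The Smad4 KO mice were Smad4f/f;Villin-CreER(T2) and were also given tamoxifen. Both mutant groups were injected on 4 consecutive days and collected 1 day later. The controls are labelled as control mice on vehicle, while the design text calls them uninjected, so tamoxifen and the recombinase cannot be told apart from genotype. Villin-CreER(T2) is a tamoxifen-activated recombinase driven by the promoter of an intestinal epithelial gene, not a lymphocyte gene. Ages are not given in the sources used here.

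Intraepithelial lymphocytes sit above the basement membrane, in contact with enterocytes, and are more frequent along the villus than in the crypt. In the small intestine most are T cells that carry CD8 alpha, hold cytotoxic granules ready and are kept in place by the integrin that Itgae helps to form, which binds E-cadherin on epithelial cells. The epithelium was lifted off with EDTA at 3 mM and crypts were collected through a filter of 70 micron pores, and the labels state no step that removes lymphocytes. In such bulk samples, fewer T cells and less RNA per T cell cannot be told apart.

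Values are FPKM, fragment numbers scaled to transcript length and library size, so levels of different genes are compared per length. The epithelial marker Epcam was at 825 to 984 FPKM in the double mutants, 722 to 1037 FPKM in Smad4 KO and 685 to 959 FPKM in the controls of the Smad4 KO table, and the crypt genes Lgr5, Olfm4 and Lyz1 were detected in every library. Smad4 fell to 10.4 ± 0.64 FPKM in the double mutants against 52.0 ± 5.96 FPKM in controls, and to 10.6 ± 0.56 FPKM in Smad4 KO against 49.8 ± 5.02 FPKM in controls (SD, n = 3 each; limma adjusted p = 0.00176 and 0.00664 for log2 fold changes of -2.21 and -2.13). Relative depth, estimated from the spacing of low values, ran from 0.966 to 1.42 times that of control 0. In double mutant 0 and Smad4 KO 2 the summed level of stromal, endothelial and blood transcripts was 101 and 151 FPKM, against at most 31.2 FPKM in the other libraries. These libraries stand apart in that respect, and results are given with and without each library.

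In the double mutants 9 of the 10 T cell genes fell, and the tenth, Cd3d, was lower on average without passing the test. The 10 means were between 21.6% and 33.9% of the control means. For 9 of the 10 genes every double-mutant library lay below every control library. The CD3 genes of this set encode signalling chains of the T cell receptor complex. Cd3g, the gamma chain, was at 3.24, 2.21 and 3.86 FPKM in double mutants 0, 1 and 2, against 11.8, 7.96 and 18.7 FPKM in controls 0, 1 and 2. The groups did not overlap, and control 1 was the lowest control (limma log2 fold change -1.70 with SE 0.31, adjusted p = 0.0216). Cd3e, the epsilon chain, was at 1.74, 1.89 and 3.08 FPKM in the double mutants, against 7.68, 4.04 and 10.7 FPKM in the controls. Here too the groups were separate, with double mutant 2 nearest to control 1 (limma log2 fold change -1.33 with SE 0.33, adjusted p = 0.0421). Cd3d, the delta chain, was at 1.14, 0.506 and 2.35 FPKM in the double mutants, against 4.20, 1.93 and 5.65 FPKM in the controls. Double mutant 2 lay above control 1, so the groups overlapped (limma log2 fold change -1.08 with SE 0.40, adjusted p = 0.111). The 3 CD3 genes neighbour each other on chromosome 9.

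**Figure D1:**
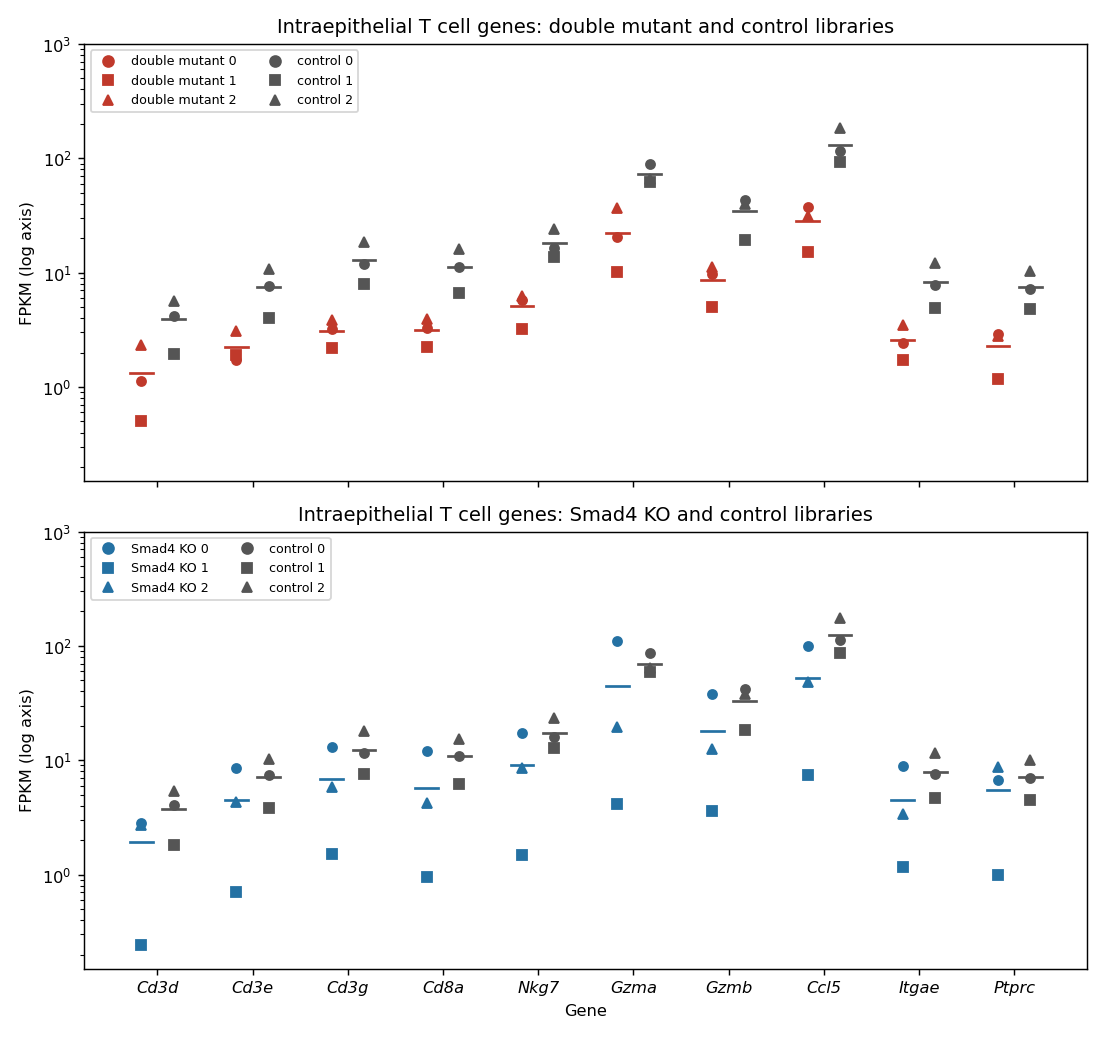
FPKM (log axis) of the 10 genes in each library, double mutants and controls above, Smad4 KO and controls below; points are libraries, with a marker for each library number, and bars are group means. For every gene except Cd3d all 3 double mutants lie below all controls, while Smad4 KO 0 is at control level and Smad4 KO 1 is the lowest library of its panel for all 10.

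Among the genes of effector function, the double-mutant mean was 21.6% of the control mean for Ccl5, 25.1% for Gzmb, 28.1% for Nkg7 and 30.9% for Gzma. Ccl5, a chemokine stored and released by effector T cells, was at 37.9, 15.3 and 31.3 FPKM in the double mutants, against 116, 92.4 and 183 FPKM in the controls. All 3 double mutants were below all controls, and double mutant 1 was the lowest (limma log2 fold change -2.21 with SE 0.39, adjusted p = 0.0205). Gzmb, the granule protease granzyme B, was at 9.73, 4.97 and 11.1 FPKM in the double mutants, against 43.6, 19.3 and 39.9 FPKM in the controls. Control 1 was again the lowest control, and the groups were separate (limma log2 fold change -1.86 with SE 0.39, adjusted p = 0.0287). Gzma, granzyme A, was at 20.6, 10.1 and 36.6 FPKM in the double mutants, against 88.7, 62.3 and 66.6 FPKM in the controls. No double mutant reached the lowest control (limma log2 fold change -1.81 with SE 0.43, adjusted p = 0.0380). Nkg7, a membrane protein of cytotoxic granules, was at 5.77, 3.20 and 6.25 FPKM in the double mutants, against 16.3, 13.6 and 24.3 FPKM in the controls. It had the smallest adjusted p of the 10 genes (limma log2 fold change -1.65 with SE 0.28, adjusted p = 0.0195).

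The remaining genes mark the CD8 lineage, retention in the epithelium and leukocytes in general. Cd8a, the CD8 alpha chain, was at 3.27, 2.23 and 3.96 FPKM in the double mutants, against 11.2, 6.61 and 16.1 FPKM in the controls. The groups were separate (limma log2 fold change -1.51 with SE 0.32, adjusted p = 0.0289). Itgae, the alpha E integrin chain, was at 2.45, 1.74 and 3.49 FPKM in the double mutants, against 7.74, 4.92 and 12.2 FPKM in the controls, with no overlap (limma log2 fold change -1.34 with SE 0.33, adjusted p = 0.0395). Ptprc, which encodes CD45 and is carried by all nucleated blood cells, was at 2.91, 1.17 and 2.81 FPKM in the double mutants, against 7.19, 4.78 and 10.4 FPKM in the controls. Its libraries were also separate, with double mutant 1 the lowest (limma log2 fold change -1.35 with SE 0.33, adjusted p = 0.0395). Within the double mutants, number 1 had the lowest value for 9 of the 10 genes. Within the controls, number 2 had the highest value for 8 of them.

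Of all 11762 genes tested in the double mutants, 9.09% were called lower, 9.39% higher and 18.5% in either direction, against 9 of these 10 called lower. The share of genes with every double mutant below every control was 21.3%, against 9 of the 10. The median log2 fold change of the 10 genes was -1.58, beside -0.0013 over all genes tested. All 10 passed the filter on low values, and each had a double-mutant mean above that limit of 1 FPKM. Without the adjustment all 10 passed at a p of 0.05, beside 18.4% of genes lower, 18.2% higher. The mean was lower for all 10 genes, beside 50.1% of all genes. The exact two-sided permutation p was 0.1, the smallest that 3 against 3 allows, for 9 genes and 0.2 for Cd3d. The calls depended on single libraries: 3 of the 10 genes were called without control 0, 8 without control 1, 3 without control 2, and, among the mutants, 0 with number 0 left out, 2 with number 1 left out and 0 with number 2 left out. Over all genes the same fits called 1555, 1175 and 1064 without controls 0, 1 and 2, and 139, 708 and 30 without double mutants 0, 1 and 2. All 10 genes stayed below 0 in each of these fits, with a median between -1.82 and -1.32, and Ccl5, Nkg7 and Cd3g were the 3 called without control 0 and without control 2.

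**Figure D2:**
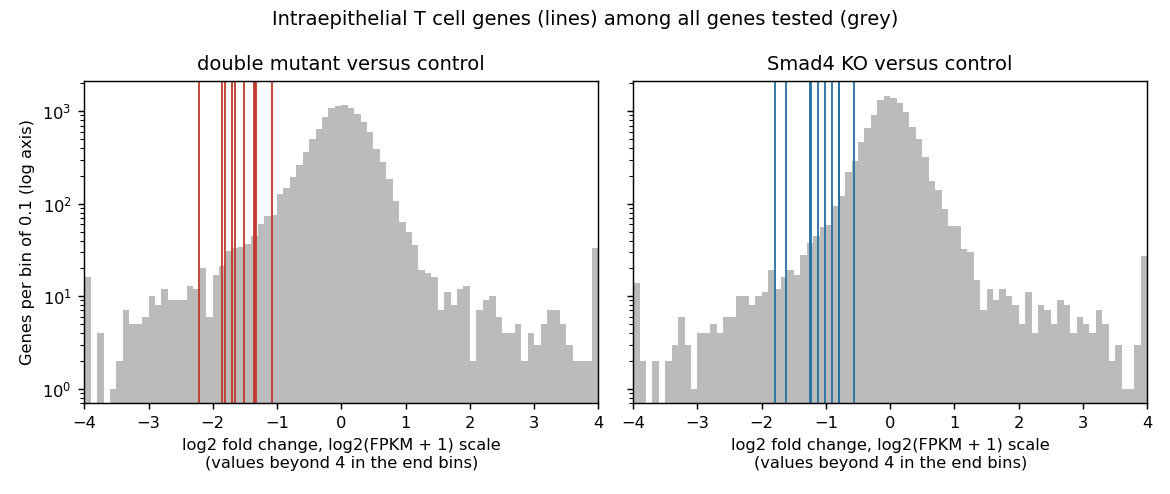
Histograms of the log2 fold change of all genes tested (grey, log count axis), double mutant versus control on the left and Smad4 KO versus control on the right, with a coloured line at each of the 10 genes. In both panels all 10 lines lie below 0, from -2.21 to -1.08 in the double mutants and from -1.80 to -0.56 in Smad4 KO.

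In Smad4 KO crypts the same 10 genes were lower on average, but the 3 libraries disagreed, and none passed the test. Smad4 KO 0 was at control level, with a median over the 10 genes of 109% of the control mean. Smad4 KO 1 was at 9.32% and Smad4 KO 2 at 44.9% by the same measure. For Smad4 KO 1 all 10 genes lay below all controls, for Smad4 KO 2 this held for 7, and for Smad4 KO 0 for 0. Gzma showed the widest spread, at 111, 4.13 and 19.4 FPKM in Smad4 KO 0, 1 and 2, against 86.0, 58.8 and 63.9 FPKM in controls 0, 1 and 2. Smad4 KO 0 was above every control and the other two below every control (limma log2 fold change -1.62 with SE 1.06, adjusted p = 0.451). Ccl5 was at 101, 7.38 and 48.5 FPKM in Smad4 KO, against 113, 87.2 and 175 FPKM in the controls. Smad4 KO 0 lay within the control range (limma log2 fold change -1.80 with SE 0.91, adjusted p = 0.336).

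Gzmb was at 37.9, 3.60 and 12.5 FPKM in Smad4 KO, against 42.3, 18.3 and 38.3 FPKM in the controls (limma log2 fold change -1.25 with SE 0.79, adjusted p = 0.433). Nkg7 was at 17.4, 1.49 and 8.57 FPKM in Smad4 KO, against 15.8, 12.8 and 23.3 FPKM in the controls (limma log2 fold change -1.23 with SE 0.72, adjusted p = 0.402). In both genes Smad4 KO 0 sat among the controls and the other libraries beneath them. Cd8a had the same order, at 12.1, 0.949 and 4.22 FPKM in Smad4 KO, against 10.8, 6.24 and 15.4 FPKM in the controls (limma log2 fold change -1.13 with SE 0.71, adjusted p = 0.433). Itgae was at 8.97, 1.16 and 3.36 FPKM in Smad4 KO, against 7.51, 4.64 and 11.7 FPKM in the controls (limma log2 fold change -0.90 with SE 0.60, adjusted p = 0.457).

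Cd3d, Cd3e and Ptprc differed from this pattern in Smad4 KO 2, and Cd3g did not. Cd3g was at 13.1, 1.51 and 5.84 FPKM in Smad4 KO, against 11.5, 7.51 and 17.9 FPKM in the controls, so Smad4 KO 2 was still below the lowest control (limma log2 fold change -1.02 with SE 0.65, adjusted p = 0.443). Cd3e was at 8.58, 0.709 and 4.31 FPKM in Smad4 KO, against 7.44, 3.81 and 10.3 FPKM in the controls (limma log2 fold change -0.80 with SE 0.67, adjusted p = 0.549). Cd3d was at 2.80, 0.244 and 2.73 FPKM in Smad4 KO, against 4.07, 1.82 and 5.42 FPKM in the controls (limma log2 fold change -0.79 with SE 0.54, adjusted p = 0.467). For these 2 genes Smad4 KO 2 was inside the control range. Ptprc was at 6.76, 0.986 and 8.69 FPKM in Smad4 KO, against 6.98, 4.51 and 9.96 FPKM in the controls, with 2 of 3 Smad4 KO libraries inside the control range (limma log2 fold change -0.56 with SE 0.64, adjusted p = 0.663).

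Of the 10 genes, limma called 0 in Smad4 KO, and 0 had an unadjusted p below 0.05; over all 11849 genes tested 0.0253% were called lower, 0.00844% higher and 0.0338% in either direction. By the unadjusted p, 9.34% were lower and 9.76% higher. No gene of the 10 had all Smad4 KO libraries below all controls, beside 12.2% of genes, and all 10 had a lower mean, beside 50.4%. The exact two-sided permutation p ran from 0.2 to 0.6. The 95% intervals of the log2 fold changes all included 0 and reached from -4.21 to 0.99, a range that also holds the log2 fold changes seen in the double mutants. The median of the 10 was -1.07, beside -0.0032 over all genes tested. Leaving out Smad4 KO 0, 1 or 2 gave a median of -1.71, -0.39 or -1.11, and with Smad4 KO 1 left out Ptprc alone was above 0, at 0.15 (adjusted p = 0.838). With controls 0, 1 and 2 left out in turn the median was -1.03, -1.36 and -0.79.

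**Figure D3:**
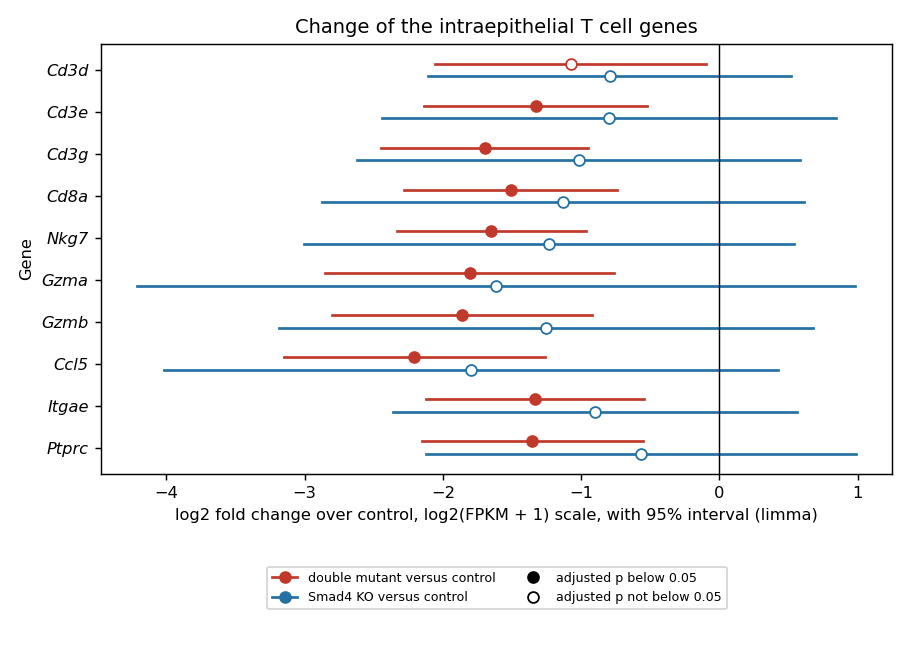
Log2 fold change over control with its 95% interval for each gene, double mutants in red and Smad4 KO in blue; filled points have a limma adjusted p below 0.05. The intervals of the double mutants lie below 0 for all 10 genes and those of Smad4 KO are wider and include 0 for all 10.

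The spread between libraries of a group was itself unequal. The highest over the lowest library of a gene was 1.75 to 4.63 in the double mutants, 7.75 to 26.8 in Smad4 KO and 1.46 to 2.98 in the controls of the Smad4 KO table. On the log2 scale the median standard deviation of the 10 genes was 1.32 in Smad4 KO, larger than that of 96.5% of genes tested there. Both comparisons share the control libraries, so they are not independent. The tables were normalized separately, so no test was made between the mutant groups. After the 9 libraries were put on one scale by median-of-ratios factors, Smad4 KO 1 lay below all 3 double mutants for 10 of 10 genes. For 8 genes the other Smad4 KO libraries lay above all 3 double mutants, and for Gzma and Itgae only 1 did. Cd8a, for example, was at 3.21, 2.18 and 3.88 FPKM in double mutants 0, 1 and 2, while Smad4 KO 0, 1 and 2 had 12.3, 0.966 and 4.27 FPKM, and controls 11.0, 6.55 and 15.7 FPKM on that scale. With all 9 libraries in a single fit, which pools the large spread of Smad4 KO with the other groups, 0 of the 10 genes were called in the double mutants and 0 in Smad4 KO, where that fit called 1643 and 418 of all 11867 genes.

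Ratios of FPKM within a library do not depend on its scaling. Cd3g over Ptprc was 1.11, 1.88 and 1.37 in the double mutants, 1.94, 1.53 and 0.672 in Smad4 KO and 1.65, 1.67 and 1.80 in the controls. Cd8a over Ptprc was 1.12, 1.90 and 1.41 in the double mutants, 1.80, 0.963 and 0.486 in Smad4 KO and 1.55, 1.38 and 1.55 in the controls. Smad4 KO 2 was the lowest library in both ratios, and double mutants lay on either side of the controls. Gzma over Ptprc was 7.07, 8.59 and 13.0 in the double mutants, 16.4, 4.19 and 2.23 in Smad4 KO and 12.3, 13.0 and 6.41 in the controls. Cd8a over Cd8b1, the alpha over the beta chain of CD8, was 3.36, 5.12 and 5.53 in the double mutants, 5.54, 3.01 and 4.86 in Smad4 KO and 4.53, 3.48 and 4.04 in the controls, so the alpha chain exceeded the beta chain in every library. Cd8b1 was low, at 0.973, 0.436 and 0.716 FPKM in double mutants 0, 1 and 2. In Smad4 KO 1 both genes were below 1 FPKM, at 0.949 for Cd8a and 0.315 for Cd8b1, so these ratios are imprecise. The mean log2(FPKM + 1) of Gzma, Gzmb, Nkg7 and Ccl5 exceeded that of the CD3 genes by 2.43, 1.77 and 2.16 in the double mutants, 2.74, 1.43 and 1.89 in Smad4 KO and 2.67, 2.82 and 2.37 in the controls of the Smad4 KO table. Unlike the ratios, this difference depends on scale through the added 1. It shrinks when all these genes fall by the same factor, because the CD3 genes are low. It therefore does not show that the cytotoxic genes fell more than the CD3 genes. These ratios and differences are descriptions and were not tested.

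**Figure D4:**
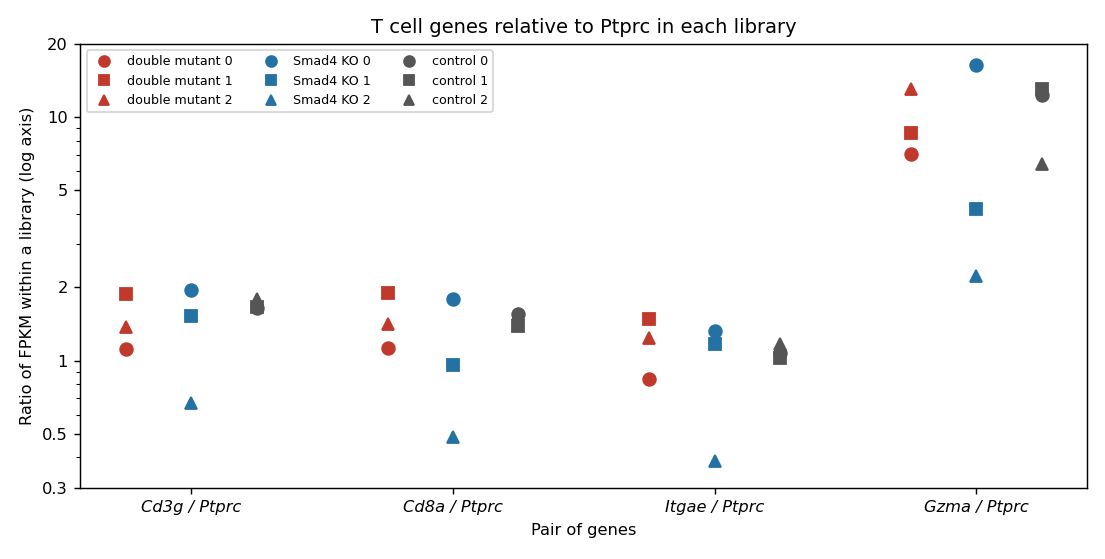
Ratio of FPKM of Cd3g, Cd8a, Itgae and Gzma to Ptprc within each library (log axis), for the double mutants, Smad4 KO and controls. Smad4 KO 2 is the lowest library in all 4 ratios, at 0.672, 0.486, 0.386 and 2.23.

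Over the 9 libraries the pairwise Pearson correlations of the 10 genes on the log2 scale had a median of 0.94 over 45 pairs, from 0.78 for Gzma with Ptprc to 0.99 for Nkg7 with Ccl5. The points share library and group, so this describes a common pattern and is not a test. Among the 11867 genes tested over the 9 libraries, the 5 genes outside the 10 with the highest correlation with the mean of the 10 were Rgs1 (0.99), Cd7 (0.98), Zap70 (0.98), Grap2 (0.97) and Prmt2 (0.97). Rgs1 and Grap2 were below 1 FPKM in every double mutant, and Zap70 in double mutants 0 and 1. They passed the filter through libraries of the other groups, so their likeness is no support by itself. Cd7, a surface protein of T and NK cells, was at 7.42, 6.74 and 13.0 FPKM in the double mutants, 35.3, 2.73 and 13.3 FPKM in Smad4 KO and 31.4, 13.9 and 45.8 FPKM in the controls on the common scale. Smad4 KO 1 was the lowest library and control 2 the highest, as for Cd8a, Nkg7 and Ccl5. Cd7 and the other genes listed were picked by their correlation over these same libraries. Their shared order follows from that choice and is no support.

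RefSeq promoter sequences (build GRCm38.p6) matched 8 of the 10 genes, all but Ccl5 and Itgae. Those of Cd3e, Nkg7 and Gzmb are shown as examples of CD3 and cytotoxic genes and are not typical in their matches. Each is the 250 bases before the annotated start, 5′ to 3′ on the gene's strand, with capitals at matches on either strand to AGGAAG (an ETS-type motif), TGTGGT (a RUNX-type motif) or GGTGTGA (a T-box-type motif); no matches overlap in them.
Cd3e, chr9:45009612-45009861, minus strand: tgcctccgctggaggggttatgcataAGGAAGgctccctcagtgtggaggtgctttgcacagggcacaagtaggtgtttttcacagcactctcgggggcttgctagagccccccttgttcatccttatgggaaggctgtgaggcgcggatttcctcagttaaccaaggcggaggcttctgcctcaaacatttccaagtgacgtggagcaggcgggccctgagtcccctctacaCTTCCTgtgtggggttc
Nkg7, chr7:43436888-43437137, plus strand: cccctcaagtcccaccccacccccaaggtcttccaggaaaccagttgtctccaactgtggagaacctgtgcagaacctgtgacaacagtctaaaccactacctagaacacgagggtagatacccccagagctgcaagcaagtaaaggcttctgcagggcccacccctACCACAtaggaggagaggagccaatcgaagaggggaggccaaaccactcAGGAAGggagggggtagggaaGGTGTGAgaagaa
Gzmb, chr14:56262335-56262584, minus strand: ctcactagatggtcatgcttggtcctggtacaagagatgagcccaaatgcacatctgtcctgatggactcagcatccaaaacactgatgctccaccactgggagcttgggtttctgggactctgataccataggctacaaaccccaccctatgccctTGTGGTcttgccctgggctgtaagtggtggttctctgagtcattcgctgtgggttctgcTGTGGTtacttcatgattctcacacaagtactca
The ETS-type letters were found in 4 of the 8 genes, beside 29.5% of 32851 promoter entries. The units differ, because genes are counted over all their entries and Ptprc has more than 1 entry. The RUNX-type letters were found in 3 of the 8, beside 14.0%, and the T-box-type letters in 1, beside 3.33%. Cd3g and Cd8a had no match to any of these motifs. The promoters shown hold more matches than those of Cd3d, Cd3g and Gzma. A match is a run of letters and not a measured binding site.

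Most other T cell genes tested were also lower on average in the double mutants, with fewer calls. Of 35 T cell receptor and surface genes, 15 passed the filter in the double mutants, and their median log2 fold change was -0.76. Of these 15, 13 were lower on average, beside 50.1% of all genes. Only 1 was called lower and 0 higher, beside 9.09% and 9.39% of all genes, so the calls are near the share called lower. Of those 15, 7 were below 1 FPKM on average in the double mutants, Cd8b1 and Zap70 among them. These 7 passed the filter through the controls, so the counts and the call of Cd8b1 are no support by themselves. Cd8b1, the CD8 beta chain, fell to 0.708 ± 0.27 FPKM in the double mutants against 2.78 ± 1.08 FPKM in controls (SD, n = 3 each; limma log2 fold change -1.12, adjusted p = 0.0336). Zap70, the kinase recruited to the CD3 chains, was at 0.812 ± 0.40 FPKM in the double mutants against 2.28 ± 0.77 FPKM in controls and did not pass (SD, n = 3 each; limma adjusted p = 0.0619). Cd247, the zeta chain of the same complex, did not pass in either comparison. It was at 1.01, 0.560 and 0.972 FPKM in the double mutants against 1.06, 0.870 and 2.63 FPKM in the controls. The groups overlapped (limma log2 fold change -0.39, adjusted p = 0.381). In Smad4 KO its mean was 1.55 FPKM against 1.46 FPKM in controls (limma log2 fold change 0.056, adjusted p = 0.951). Cd4 was below the filter, at no more than 0.473 FPKM in any double mutant and 0.843 FPKM in any control. In Smad4 KO, Cd4 was also below the filter, at 1.10, 0.125 and 1.58 FPKM in libraries 0, 1 and 2 against at most 0.808 FPKM in the controls, so 2 of the 3 lay above every control. In Smad4 KO 0 of 18 tested genes of this list were called, with a median of -0.38, and 1 had an unadjusted p below 0.05. Over all genes 9.34% were lower and 9.76% higher in Smad4 KO by the unadjusted p.

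Of 37 further cytotoxic and NK receptor genes, 13 passed the filter in the double mutants, with a median of -0.66. In this list 2 were called lower and 0 higher, beside 9.09% and 9.39% of all genes. Of the 13, 3 averaged below 1 FPKM in the double mutants, Rgs1 among them, so the same limit applies to these counts. Rgs1, a regulator of G protein signalling in lymphocytes, fell to 0.811 ± 0.23 FPKM in the double mutants against 2.83 ± 0.75 FPKM in controls, and Klrd1, the CD94 receptor chain, to 1.34 ± 0.74 FPKM in the double mutants against 4.84 ± 1.47 FPKM in controls (SD, n = 3 each; limma adjusted p = 0.0254 and 0.0363). The perforin gene Prf1 was below the filter, at 0.114 to 0.189 FPKM in the double mutants and 0.205 to 0.633 FPKM in the controls. Among 10 tested homing and retention genes 0 were called and all 10 were lower on average, beside 50.1% of all genes. By limma 3 of them had an unadjusted p below 0.05, beside 18.4% of all genes lower by that measure. Of the 10, 3 averaged below 1 FPKM in the double mutants and passed the filter through the controls. The count of lower means is therefore no support by itself. Itgb7, the partner of the alpha E chain, was at 1.40 ± 0.60 FPKM in the double mutants against 4.23 ± 2.47 FPKM in controls (SD, n = 3 each; limma log2 fold change -1.05, adjusted p = 0.105). In Smad4 KO limma called 0 of the 13 cytotoxic and 0 of the 12 homing genes tested, with 3 and 0 at an unadjusted p below 0.05. Of these 3, Ccl4 and Klrd1 were lower and the cytokine gene Tnf was higher on average. By the unadjusted p, 9.34% of all genes were lower in Smad4 KO and 9.76% higher.

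The epithelium itself makes signals that attract and hold these cells. Whether the levels of such signals bear on the 10 genes here was not tested. Bulk libraries also do not show which cells made each transcript. Of 14 tested genes of an epithelial list of such ligands and related receptors, 3 fell and 1 rose in the double mutants, beside 9.09% of all genes called lower and 9.39% called higher. Ccl25, the chemokine of the small intestine that gut-homing T cells follow, fell to 105, 158 and 133 FPKM in the double mutants against 262, 469 and 616 FPKM in the controls (limma log2 fold change -1.69 with SE 0.33, adjusted p = 0.0256). Il15, a cytokine that sustains intraepithelial lymphocytes, fell to 4.77, 3.61 and 4.37 FPKM in the double mutants against 7.16, 7.25 and 10.9 FPKM in the controls (limma log2 fold change -0.83 with SE 0.18, adjusted p = 0.0319). Butyrophilin-like Btnl1, which acts on gamma delta T cells of the mouse gut, fell to 29.6 ± 9.62 FPKM in the double mutants against 68.4 ± 24.2 FPKM in controls (SD, n = 3 each; limma adjusted p = 0.0483). The groups were separate for Ccl25, Il15 and Btnl1. In this list 5 of 14 genes had every double mutant below every control, beside 21.3% of all genes. Tgfbr2, a TGF-beta receptor chain, rose to 6.98 ± 0.90 FPKM in the double mutants against 3.21 ± 0.55 FPKM in controls (SD, n = 3 each; limma adjusted p = 0.0171). Cdh1, the E-cadherin that the Itgae integrin binds, was at 321 ± 29.0 FPKM in the double mutants against 268 ± 17.2 FPKM in controls and did not pass (SD, n = 3 each; limma adjusted p = 0.197).

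In Smad4 KO limma called 0 of 15 tested ligand genes, and 3 had an unadjusted p below 0.05. Of these, 2 were lower and 1 higher, beside 9.34% and 9.76% of all genes. Ccl25 was at 235, 120 and 102 FPKM in Smad4 KO against 254, 443 and 591 FPKM in the controls, and Il15 averaged 5.47 ± 3.93 FPKM in Smad4 KO against 8.07 ± 2.04 FPKM in controls (SD, n = 3 each; limma adjusted p = 0.173 and 0.458). In Ccl25 all 3 Smad4 KO libraries were below all controls, while in Il15 Smad4 KO 0 lay within the control range. Such a separation held for 1 of the 15 ligand genes, beside 12.2% of all genes. Leaving out 1 library changed the calls in the double mutants. Without double mutant 0 or without double mutant 2 no gene of the T cell, cytotoxic, ligand or pan-leukocyte lists was called. The T cell list had 0, 2 and 0 called genes without controls 0, 1 and 2 and 0 without double mutant 1, and the cytotoxic list 0, 4, 0 and 0 in the same order. The ligand list had 3, 2, 3 and 1 called genes in that order. Of the ligand genes named, Ccl25, Il15, Btnl1 and Tgfbr2 were not called in 5, 6, 12 and 3 of 15 alternative settings.

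Markers of villus enterocytes fell beside the 10 genes in the double mutants. All 18 villus enterocyte genes were lower on average in the double mutants and 15 were called lower, beside 50.1% and 9.09% of all genes. Their median was -1.99, and their summed level was 1286 to 2504 FPKM against 4543 to 13024 FPKM in the controls. None was at 0. Alpi, intestinal alkaline phosphatase, fell to 32.1 ± 4.61 FPKM in the double mutants against 118 ± 64.6 FPKM in controls (SD, n = 3 each; limma adjusted p = 0.0270), and the apolipoprotein gene Apoa1 to 339 ± 116 FPKM in the double mutants against 1457 ± 929 FPKM in controls (SD, n = 3 each; limma adjusted p = 0.0420). In Smad4 KO their summed level was 15621, 1265 and 2499 FPKM in libraries 0, 1 and 2, against 4406 to 12487 FPKM in the controls, so Smad4 KO 0 was the highest of its group and Smad4 KO 1 the lowest, as for 9 of the 10 T cell genes. Double mutants differ in order: the villus sum was lowest in number 0 and the T cell genes were lowest in number 1. The part of villus content in the level of the T cell genes was not tested. The number of villus genes called was 14, 8 and 12 without controls 0, 1 and 2, and 1, 5 and 0 without double mutants 0, 1 and 2.

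**Figure D5:**
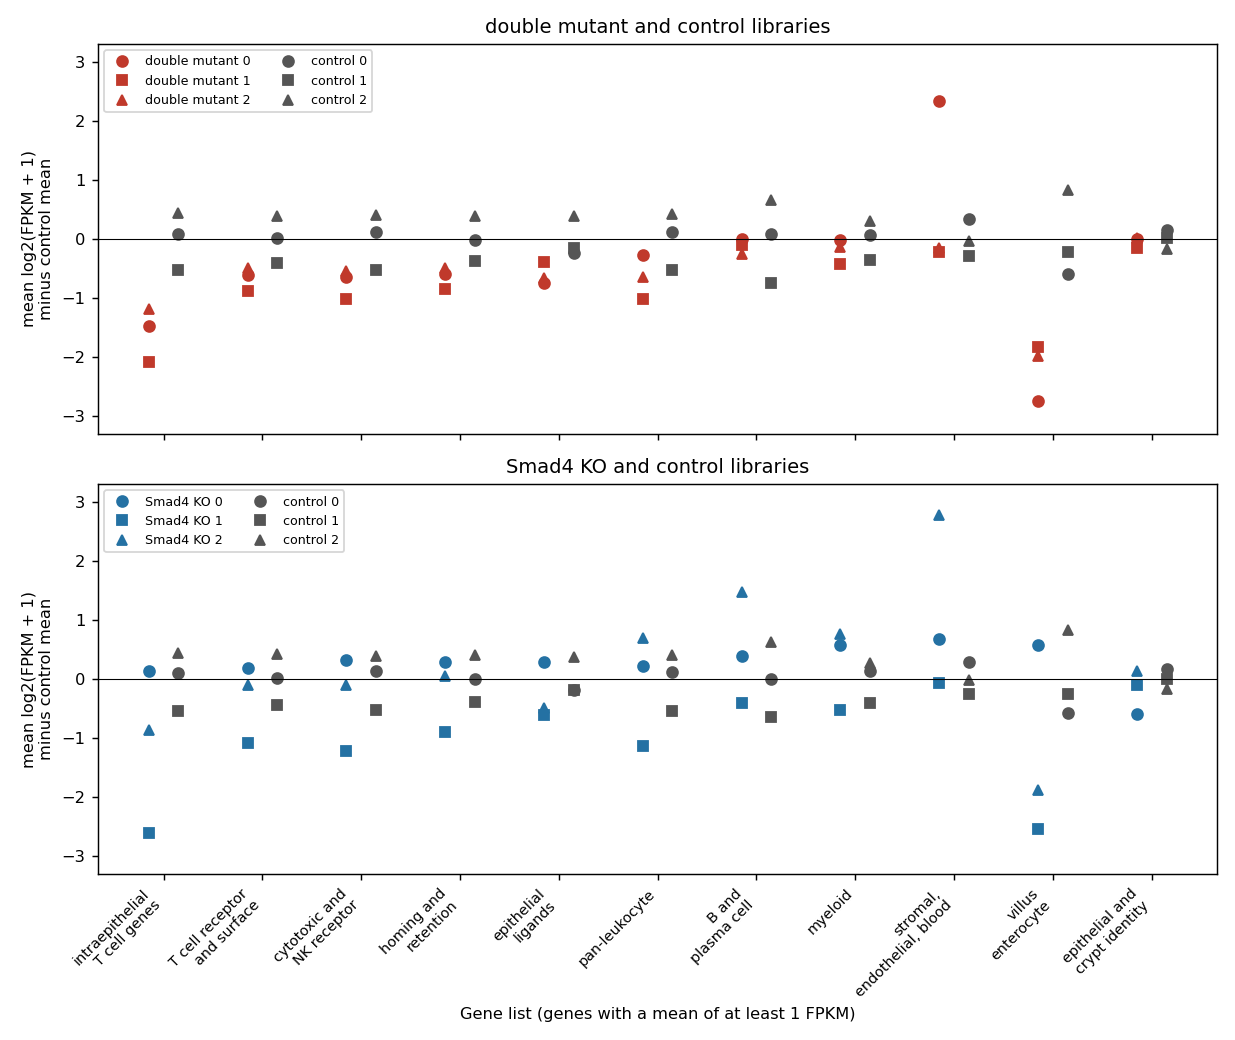
Mean log2(FPKM + 1) of each gene list in each library minus the mean of the controls, double mutants above and Smad4 KO below; genes under a mean of 1 FPKM are left out. The 10 T cell genes and the villus genes are low in all 3 double mutants and in Smad4 KO 1 and 2, while stromal transcripts are high in double mutant 0 (2.33) and Smad4 KO 2 (2.78).

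Pan-leukocyte genes were lower on average for 23 of 24 tested in the double mutants, beside 50.1% of all genes. In this list 3 were called lower and 0 higher, with a median of -0.72. Over all genes 9.09% were called lower and 9.39% higher, so the 3 calls are near the share called lower. Of the 24, 6 averaged below 1 FPKM in the double mutants, the called gene Cytip among them, and passed the filter through the controls, so these counts are no support by themselves. Their summed level was 48.5 to 98.0 FPKM in the double mutants against 80.1 to 171 FPKM in the controls, so the groups overlapped. Without controls 0, 1 and 2 and double mutant 1 the calls numbered 1, 2, 1 and 1. The 3 were Ptpn6, Cytip and Gmfg. Ptpn6, a phosphatase of blood cells that epithelial cells also express, fell to 10.2 ± 1.23 FPKM in the double mutants against 18.0 ± 1.86 FPKM in controls (SD, n = 3 each; limma adjusted p = 0.0176). In Smad4 KO the sum was 139, 43.3 and 234 FPKM in libraries 0, 1 and 2, against 75.6 to 164 FPKM in the controls, and 0 of 24 genes were called or had an unadjusted p below 0.05. By the unadjusted p, 9.34% of all genes were lower there and 9.76% higher. Smad4 KO 2 was the highest library for this sum, while Cd8a, Nkg7, Gzma, Gzmb, Ccl5, Itgae and Cd3g in it lay below every control.

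B cell and plasma cell genes were not called by limma in either comparison: 0 of 10 in the double mutants, with 1 at an unadjusted p below 0.05, and 0 of 14 in Smad4 KO, with 0. Their medians were -0.11 and 0.47, and their summed level was 714 to 1614 FPKM in the double mutants against 870 to 2240 FPKM in the controls, and 875 to 2181 FPKM in Smad4 KO against 821 to 2148 FPKM in the controls. On the log2 scale the mean of this list in Smad4 KO 2 was 1.47 above the control mean, the highest value of the 6 libraries in that table. Ptprc is carried by B cells as well as T cells, and the part of B cells in its level in Smad4 KO 2 was not tested. Myeloid genes had 1 of 7 called higher in the double mutants, the receptor gene Cd14 at 12.1 ± 2.03 FPKM in the double mutants against 7.80 ± 0.43 FPKM in controls (SD, n = 3 each; limma adjusted p = 0.0350), a call that ended without each of the 6 libraries in turn, and limma called 0 of 10 in Smad4 KO, with 2 at an unadjusted p below 0.05. The myeloid sum was 73.7 to 93.7 FPKM in the double mutants against 79.0 to 134 FPKM in the controls, and 64.2 to 146 FPKM in Smad4 KO against 74.6 to 128 FPKM in the controls. Stromal, endothelial and blood genes had 0 called by limma and 0 at an unadjusted p below 0.05 in either comparison, and their part in the T cell results was not tested. Of the epithelial and crypt identity genes, limma called 2 of 23 higher in the double mutants, the stem cell genes Smoc2 and Lgr5. Over all genes 9.39% were called higher, so the count is near that share. The same share stands beside the 1 of 7 myeloid genes called higher. For the crypt list the calls numbered 2, 1 and 2 without controls 0, 1 and 2. They numbered 0, 2 and 0 without double mutants 0, 1 and 2. In Smad4 KO limma called 0 of the 23, and 1 had an unadjusted p below 0.05. By the unadjusted p, 9.34% of all genes were lower and 9.76% higher in Smad4 KO. In the double mutants these shares were 18.4% and 18.2%. The same shares stand beside the B cell, myeloid and stromal counts by the unadjusted p.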

How the data were processed

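RNA from jejunal crypts had been sequenced from TruSeq libraries, per the labels' protocols. The deposited values are FPKM, made by the authors with TopHat2 2.1.1, Cuffnorm 2.2.1 and Cuffdiff 2.2.1 on mm9, per the submitters' processing notes; no annotation is named there. There were 2 tables, 1 for each mutant group, both with the controls; each control differed between them by a single factor (1.03, 1.06 and 1.04 for controls 0, 1 and 2). FPKM holds no read numbers, so depth in reads is unknown and counting error cannot be given.

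The tables were tested separately, on log2(FPKM + 1), by limma 3.58.1 (R 4.3.3, mean-variance trend). Genes entered if they averaged 1 FPKM or more over the 6 libraries. P-values were two-sided, Benjamini-Hochberg adjusted over all genes tested, and called below 0.05. On that scale changes of low genes are understated. Separate mice are not stated for libraries of 1 group, so p-values measure the spread between libraries. The script was tested on simulated data. The members and lists were chosen with earlier results of these data known. Named genes were drawn from a planned set, and not all of that set are printed. The set was the 10, Smad4, Ctnnb1, 12 fixed examples and the 5 most correlated genes. It also held up to 3 genes of smallest p and all called genes of each list. Alternatives were pseudocounts of 0.1 and 5, no filter or a filter at 0.3 FPKM, median-of-ratios and quantile scaling, no trend, a 9-library fit, a replicate block and leaving out each library.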

Additional observations from a re-analysis of the deposited data

How the results depend on the processing

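Over the 10 genes and 15 alternatives in the double mutants, 95 results kept their side of the threshold, 54 lost the call, 1 (Cd3d under the replicate block) gained it and 0 changed direction. In Smad4 KO 149 kept theirs and 1 changed direction: Ptprc was 0.15 without Smad4 KO 1, and ran from -0.998 to 0.15 with 1 library left out. The number of the 10 genes called in the double mutants was 3 with no filter, where 17987 genes share the adjustment, and 0 in the 9-library fit; leaving out 1 library gave 0 to 8. In Smad4 KO it was 0 in every alternative run. Over all genes, calls in the double mutants were 2173, and 1392 with no filter, and 30 to 1555 without 1 library. In Smad4 KO they were 4, and 2 with pseudocount 5, 8 with quantile normalization, 418 in the 9-library fit, 1 with the replicate block and 5 to 16 without 1 library. The causes of these shifts were not tested. The replicate block called 10 of the 10 genes in the double mutants and 1602 genes in all. Same-numbered libraries had correlations of 0.072, 0.13 and 0.037 in the double-mutant table and -0.11, 0.22 and -0.099 in the Smad4 KO table. Differently numbered libraries had -0.11 to 0.032 in the double-mutant table, below each same-numbered value there. In the Smad4 KO table they had -0.15 to 0.21. Same-numbered libraries thus did not deviate together in both tables, and the numbers are not taken to pair samples. With 3 libraries a group, absolute depth unknown and several genes under 1 FPKM in a library, small differences are not detectable.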
